A study of Homo sapiens with 12 samples.

Results

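The genes of the heterogeneous nuclear ribonucleoproteins (hnRNPs) were taken as every row of the count table whose symbol starts with HNRNP. This gave 29 of 25369 rows: 23 coding genes, 4 processed pseudogenes (HNRNPA1P10, HNRNPA1P33, HNRNPA3P1, and HNRNPKP3), and 2 other rows, HNRNPU-AS1 and the readthrough HNRNPUL2-BSCL2. The RNA came from U2OS cells, a human osteosarcoma line, in the form of 4 stable Tet-On lines with 3 biological replicates each. The pTRE line carried the empty vector, and the others carried E2F1 as WT, as R109K, which has a lysine in place of an arginine, or as KK, which has lysines in place of 2 other arginines (R111/113K). All lines, pTRE included, keep their own E2F1 gene and received doxycycline at 1 µg/ml for 24 hours. Each derivative is represented by 1 line, so a difference between lines and a difference between E2F1 forms cannot be told apart.

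hnRNPs are RNA binding proteins that coat pre-mRNA as it is made. They take part in the choice of splice sites, the packaging and export of mRNA, and its stability, and many of them carry arginine-rich RGG stretches that are methylated by the PRMT enzymes. Processed pseudogenes are copies of an mRNA that were inserted back into the genome, and abundant mRNAs such as that of HNRNPA1 have left many. GENCODE lists 123 pseudogenes with an HNRNP symbol, so the 4 rows in the count table are a small share of them.

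E2F1 was first checked as the induced gene. Levels are given as CPM, gene counts scaled to a common library total with TMM factors. E2F1 reached 1469 to 2315 CPM in the WT libraries, 932 to 1283 CPM in R109K, and 1112 to 1478 CPM in KK, above the 83.0 to 101 CPM of pTRE. The log2 fold change against pTRE was 4.31 in WT, 3.67 in R109K, and 3.85 in KK, each with SE 0.20 (adjusted p = 3.62e-09, 1.52e-08, and 4.75e-09, edgeR quasi-likelihood test). WT replicate 2 stood apart, with 58.7% of its reads outside annotated genes and 11500537 reads on genes, while the other 11 libraries had 21366887 to 31040903 reads on genes. In the paragraphs below, edgeR calls in WT, and results that this library moved by over 1.5 times, are therefore also given without it. The E2F1 and marker values in this paragraph are from all 12 libraries only. The summed CPM of 8 osteoblast markers was 4683 to 5886 in pTRE and 1022 to 1742 in the E2F1 lines, with COL1A1 and SPARC present in every line, and the osteoblast factor SP7 had a mean of 0 CPM in pTRE and R109K. The sums were 744 to 919 against 365 to 659 for 4 epithelial markers and 2.24 to 2.89 against 0.799 to 1.48 for 3 endothelial markers. A marker of macrophages, CD68, went the other way, with means of 15.5 CPM in pTRE and 22.29, 22.99, and 22.99 CPM in WT, R109K, and KK (adjusted p = 0.00841, 0.00685, and 0.00535, edgeR). Not every marker in the falling sums fell. The osteoblast sum was mostly COL1A1 and SPARC. ALPL had log2 fold changes of 0.06, 0.18, and 0.65 in WT, R109K, and KK against pTRE. RUNX2, of the same list, was lower, at -0.60, -0.90, and -0.67 (adjusted p = 0.0118, 0.00101, and 0.00626, edgeR). In the same order, KRT8 had -1.08, -0.74, and -0.91, and CDH1 had -0.41, -1.03, and -0.49. KRT18 had -0.25, -0.13, and -0.07, and EPCAM had -0.09, 0.12, and 0.04. VWF had -1.62, -1.62, and -1.47, while CDH5 had mean CPM of 0.0911 in pTRE and 0.319, 0.161, and 0.291. The markers' part in the results below was not tested.

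Levels within the family were compared per kilobase of the canonical GENCODE transcript. In pTRE, HNRNPA2B1, a core protein of the hnRNP particle, was highest at 426 ± 26.5 CPM per kb (SD, n = 3). HNRNPK, which binds C-rich RNA through KH domains, followed at 277 ± 16.7 CPM per kb, and HNRNPM, HNRNPH1, HNRNPAB, and HNRNPF lay between 205 and 218 CPM per kb, with SDs from 3.96 to 18.3. HNRNPC, which binds uridine tracts as a tetramer, had 194 ± 4.03 CPM per kb. The order of HNRNPM, HNRNPH1, HNRNPAB, and HNRNPF is within the SDs of the 3 libraries. HNRNPUL2 was lowest of the tested coding genes at 5.59 ± 0.21 CPM per kb, next to HNRNPA1 at 6.86 ± 0.65 and HNRNPA1L2 at 8.31 ± 0.63. Values of genes that share sequence or exons with another gene are uncertain. Of the canonical exon bases, 100% in HNRNPA1L2, 45.9% in HNRNPUL2, 26.2% in HNRNPL, and 15.8% in HNRNPH2 lie under exons of another gene on the same strand.

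**Figure D1:**
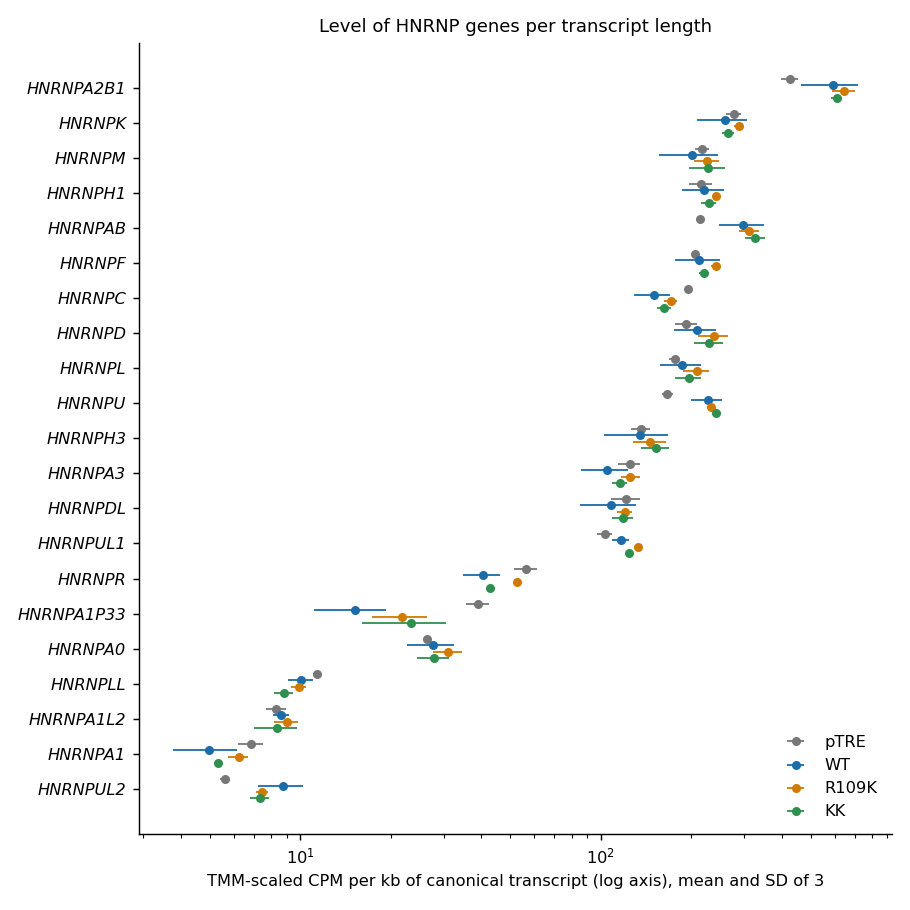
TMM-scaled CPM per kilobase of canonical transcript on a log axis, as mean and SD of 3 libraries, for each HNRNP gene above 1 CPM per kb in pTRE. HNRNPA2B1 is highest in all 4 lines, and HNRNPA1, HNRNPA1L2, HNRNPUL2, and HNRNPLL lie in the lowest group.

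A few coding members were at or near no reads. HNRNPCL1 had 0 reads in all 12 libraries, and HNRNPCL2, like it a copy of HNRNPC, had 0 or 1 read in each. HNRNPH2, a G-tract binding protein close to HNRNPH1, had between 0 and 5 reads. These 3 genes did not pass the filter on low counts, which left 20 coding genes for testing. The readthrough HNRNPUL2-BSCL2, whose canonical exon bases all lie under exons of BSCL2 or HNRNPUL2, was also at 0 in every library. Reads that could belong to more than 1 gene were listed apart as ambiguous, 0.866% to 2.16% of each library. Low counts of genes that share exons, such as HNRNPH2 and this readthrough, are therefore uncertain and need not show a lack of expression. In GENCODE, 15.8% of the canonical exon bases of HNRNPH2 lie under exons of the readthrough RPL36A-HNRNPH2. The annotation used for counting is not given, and the part of ambiguous reads in the low HNRNPH2 counts was not tested.

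The first question was whether the coding genes differed between the E2F1 lines and pTRE. In WT, 3 genes were higher (HNRNPAB, HNRNPU, and HNRNPUL2) and 1 was lower (HNRNPR), at an adjusted p-value under 0.01. Over all 16625 genes tested, 14.8% were called higher and 11.4% lower in WT, so the share of 4 in 20 was not above the 26.2% of all genes. In R109K, 3 genes were higher (HNRNPA2B1, HNRNPAB, and HNRNPU) and 0 were lower, where 10% and 7.23% of all genes were called in those directions, 17.3% together. In KK, 2 genes were higher (HNRNPAB and HNRNPU) and 0 were lower, where 13.8% and 10.7% of all genes were called. No coding member passed the further threshold of a 2-fold change in WT, R109K, or KK, against 11.8%, 7.19%, and 10.9% of all genes. The median log2 fold change of the 20 genes was 0.05 in WT, 0.14 in R109K, and 0.09 in KK, beside 0.0022, -0.00074, and -0.0091 over all genes tested. The WT median of the 20 genes was 0.17 without WT replicate 2 but turned to -0.06 without WT replicate 1, -0.01 without WT replicate 3, and -0.02 without pTRE replicate 3. The 3 comparisons share the pTRE libraries.

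Many calls were lost when 1 library was left out, in fits that also called fewer of all genes. Over the leave-outs, 19% to 25.3% of all genes were called in WT, 10.8% to 12.7% in R109K, and 17.9% to 21.9% in KK. The full fit called 26.2%, 17.3%, and 24.4%. Without any 1 of the pTRE or R109K replicates, 0 of the 3 genes were called in R109K, with adjusted p from 0.0109 to 0.0331 over the leave-outs and log2 fold changes from 0.45 to 0.65. HNRNPUL2 in WT was called in 6 of 6 leave-outs (adjusted p = 0.000463 to 0.00561), HNRNPU and HNRNPAB in WT only without WT replicate 2, and HNRNPR in WT in 2 of 6, without pTRE replicate 3 or without WT replicate 3. In KK, HNRNPU lost its call without pTRE replicate 3 (adjusted p = 0.0102) and HNRNPAB without pTRE replicate 1 (adjusted p = 0.0105), while the direction of each was the same. DESeq2 called more members, 6 in WT, 5 in R109K, and 7 in KK, beside 31.5%, 21.8%, and 28.6% of all genes. In WT it added HNRNPA2B1 as higher and HNRNPC as lower, and in R109K it added HNRNPUL1 and HNRNPUL2 as higher. In KK it added HNRNPA2B1, HNRNPUL1, and HNRNPUL2 as higher and HNRNPLL and HNRNPR as lower.

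**Figure D2:**
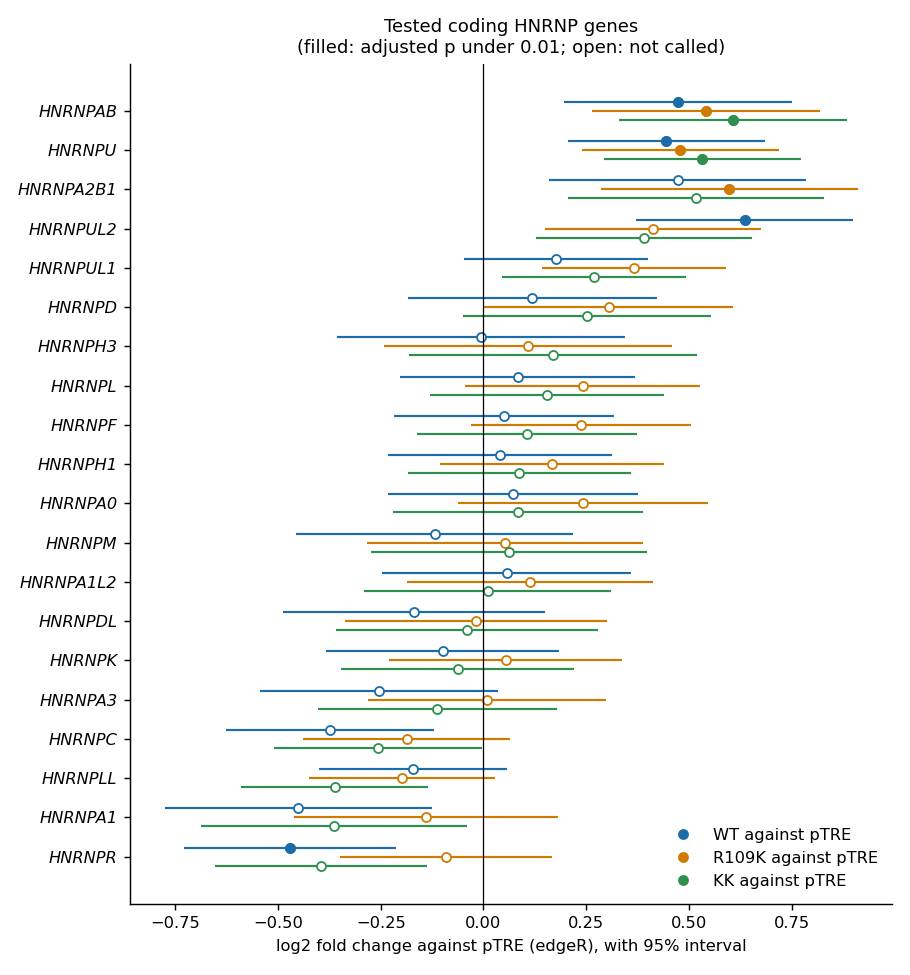
Log2 fold change against pTRE from edgeR, with its 95% interval, for the 20 tested coding HNRNP genes in WT, R109K, and KK, where filled points have an adjusted p under 0.01. HNRNPAB and HNRNPU are filled in all 3 lines, and HNRNPR is the lowest gene in WT and in KK.

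HNRNPU, also known as scaffold attachment factor A, binds RNA and chromatin and is found throughout the nucleus. On GRCh37, the build used for all gene positions, it spans bases 245003940 to 245027862 of chromosome 1, minus strand. Its level was 1194, 1142, and 1094 CPM in pTRE replicates 1 to 3, 1721, 1356, and 1593 CPM in WT, 1616, 1538, and 1628 CPM in R109K, and 1671, 1618, and 1676 CPM in KK. All 9 libraries of the E2F1 lines were above all pTRE libraries, and WT replicate 2 was the lowest of the 9. Against pTRE, HNRNPU rose by 0.45 ± 0.11 (SE) on the log2 scale in WT, 0.48 ± 0.11 in R109K, and 0.53 ± 0.11 in KK (adjusted p = 0.00556, 0.00486, and 0.00164, edgeR). Without WT replicate 2, the change in WT was 0.53 (adjusted p = 0.000793, edgeR).

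HNRNPAB is related to the AU-rich element binding proteins HNRNPD and HNRNPDL, and it spans bases 177631534 to 177638164 of chromosome 5, plus strand. The pTRE libraries had 371, 383, and 384 CPM. WT had 613, 435, and 532 CPM, R109K had 555, 591, and 510 CPM, and KK had 569, 627, and 538 CPM. The pTRE values were tight and did not overlap with those of any E2F1 line. HNRNPAB rose by 0.47 ± 0.13 on the log2 scale in WT, 0.54 ± 0.13 in R109K, and 0.61 ± 0.13 in KK (adjusted p = 0.0094, 0.00572, and 0.00187, edgeR). Without WT replicate 2, the value in WT was 0.59 (adjusted p = 0.000791, edgeR).

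HNRNPA2B1 (chromosome 7, bases 26210771 to 26241149, minus strand) encodes the A2 and B1 proteins, which bind pre-mRNA and also direct mRNAs and microRNAs to their destination. It had 1651, 1518, and 1464 CPM in pTRE, 2465, 1608, and 2354 CPM in WT, 2239, 2577, and 2199 CPM in R109K, and 2172, 2318, and 2138 CPM in KK. WT replicate 2 fell within the pTRE range, and the other 8 libraries of the E2F1 lines lay above it. In R109K, HNRNPA2B1 rose by 0.60 ± 0.15 on the log2 scale (adjusted p = 0.00634, edgeR). Its log2 fold change was 0.47 ± 0.15 in WT and 0.52 ± 0.15 in KK, which missed the threshold (adjusted p = 0.0182 and 0.0119, edgeR). Without WT replicate 2, the WT value was 0.64 and was called (adjusted p = 0.000392, edgeR).

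HNRNPUL2, a protein related to HNRNPU, spans bases 62480102 to 62494929 of chromosome 11, minus strand, where the readthrough HNRNPUL2-BSCL2 covers part of its exons. It had 28.3, 30.4, and 28.8 CPM in pTRE, 38.5, 53.8, and 44.2 CPM in WT, 37.5, 38.0, and 41.0 CPM in R109K, and 41.5, 36.1, and 37.1 CPM in KK. All libraries of the E2F1 lines were above pTRE, and WT replicate 2 was the highest. HNRNPUL2 rose by 0.64 ± 0.12 on the log2 scale in WT (adjusted p = 0.000866, edgeR), and 0.50 without WT replicate 2 (adjusted p = 0.00296, edgeR). Its log2 fold change was 0.41 ± 0.12 in R109K and 0.39 ± 0.12 in KK (adjusted p = 0.0208 and 0.0216, edgeR), which were not called.

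HNRNPR, close in sequence to SYNCRIP, was the coding member that was lower in WT. It spans bases 23630264 to 23670829 of chromosome 1, minus strand. Its level was 475, 432, and 400 CPM in pTRE, 332, 263, and 346 CPM in WT, 406, 404, and 417 CPM in R109K, and 335, 327, and 331 CPM in KK. The WT and KK libraries were all below pTRE, while the R109K libraries lay within the pTRE range. The log2 fold change was -0.47 ± 0.12 in WT (adjusted p = 0.00615, edgeR), -0.40 ± 0.12 in KK (adjusted p = 0.0181), and -0.09 ± 0.12 in R109K (adjusted p = 0.63). Without WT replicate 2, the WT value was -0.36 and was no longer called (adjusted p = 0.0153, edgeR).

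**Figure D3:**
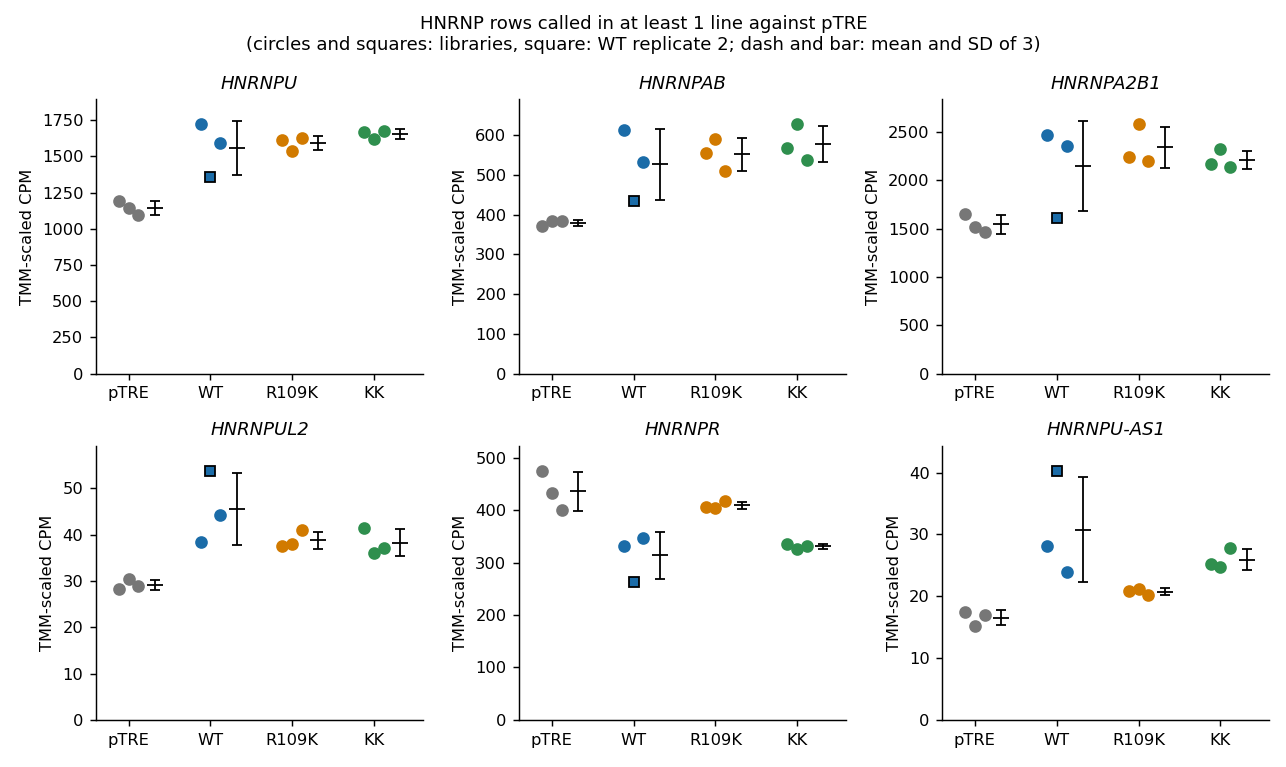
TMM-scaled CPM of HNRNPU, HNRNPAB, HNRNPA2B1, HNRNPUL2, HNRNPR, and HNRNPU-AS1 in each library of the 4 lines, with the mean and SD of 3 libraries beside the points and WT replicate 2 as a square. The square is the lowest WT library for HNRNPU, HNRNPAB, HNRNPA2B1, and HNRNPR and the highest for HNRNPUL2 and HNRNPU-AS1.

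The other 15 tested coding genes were called in no comparison with pTRE by edgeR, while DESeq2 called HNRNPC, HNRNPUL1, and HNRNPLL among them. In the A and B group, which holds the classic splicing repressors, HNRNPA1 was at -0.45 ± 0.15 in WT, -0.14 ± 0.15 in R109K, and -0.36 ± 0.15 in KK on the log2 scale (adjusted p = 0.0286, 0.546, and 0.0735, edgeR). Its paralogue HNRNPA3 had log2 fold changes of -0.25, 0.01, and -0.11, and HNRNPA0, which binds AU-rich RNA, had 0.07, 0.24, and 0.08. HNRNPA1L2, a copy of HNRNPA1, was near pTRE in all lines, at 0.06, 0.11, and 0.01. HNRNPC had -0.37, -0.19, and -0.26 (adjusted p = 0.0208, 0.269, and 0.104, edgeR), with 601 to 624 CPM in pTRE and 400 to 565 CPM in the E2F1 lines. The HNRNPC libraries of the E2F1 lines were thus all below those of pTRE, and DESeq2 called HNRNPC lower in WT (adjusted p = 0.00477), while edgeR did not.

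HNRNPD and HNRNPDL, which bind AU-rich elements and affect mRNA decay, had log2 fold changes from 0.12 to 0.30 and from -0.17 to -0.02 over the 3 lines. The G-tract binding proteins HNRNPF, HNRNPH1, and HNRNPH3 had values from -0.01 to 0.24. HNRNPK and HNRNPM, the latter a GU-rich RNA binding protein, ranged from -0.12 to 0.06. The WT values of these 15 genes were higher in the fit without WT replicate 2, at -0.29 for HNRNPA1, -0.12 for HNRNPA3, 0.21 for HNRNPA0, and -0.0064 for HNRNPDL, and turned positive for HNRNPK at 0.05, HNRNPM at 0.05, and HNRNPH3 at 0.18. In the same fit, HNRNPD was at 0.24, HNRNPF at 0.18, HNRNPH1 at 0.16, HNRNPL at 0.21, HNRNPLL at -0.12, and HNRNPC at -0.27, and none of the 15 was called. HNRNPL, which binds CA repeats, had 0.08, 0.24, and 0.15. Its relative HNRNPLL, known for the splicing of CD45 in lymphocytes, had -0.17, -0.20, and -0.36 (adjusted p = 0.212, 0.187, and 0.0151, edgeR). HNRNPUL1 was at 0.18, 0.37, and 0.27 (adjusted p = 0.192, 0.0165, and 0.0569, edgeR). DESeq2 called HNRNPLL lower in KK (adjusted p = 0.00636) and HNRNPUL1 higher in R109K and KK (adjusted p = 0.000219 and 0.00591).

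The E2F1 derivatives were also compared with WT and with each other. No coding member was called in R109K against WT, KK against WT, or R109K against KK by edgeR, where 0.71%, 0.012%, and 0.132% of all genes were called, or by DESeq2. At an unadjusted p under 0.05, edgeR gave 1, 0, and 1 of the 20 coding genes, beside 22.3%, 8.51%, and 12.4% of all genes, and HNRNPR was the gene in both comparisons. It was higher in R109K than in WT by 0.38 ± 0.12 on the log2 scale, with a 95% interval from 0.12 to 0.64 (adjusted p = 0.0927, edgeR), and by 0.26 without WT replicate 2 (adjusted p = 0.262). Against KK it was higher in R109K by 0.30 ± 0.12, with an interval from 0.05 to 0.56 (adjusted p = 0.289, edgeR). For HNRNPU, the interval of R109K against WT ran from -0.20 to 0.27 and that of KK against WT from -0.15 to 0.33. For HNRNPAB, these intervals ran from -0.21 to 0.34 and from -0.14 to 0.41. A lack of calls does not show that the lines were alike.

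Promoter sequences of 22 of the 23 coding genes, 33 windows in all, were taken from RefSeq on GRCh38.p14, each from 250 bases before a transcript start to 50 bases from it on. The windows of the 3 genes with a call higher in R109K are shown because they are the members raised against pTRE there. Capitals mark GC boxes (GGGCGG) and CCAAT boxes (CCAAT) on either strand. In HNRNPU, 2 CCAAT matches on opposite strands overlap.

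HNRNPU, chr1:244864494-244864793, minus strand: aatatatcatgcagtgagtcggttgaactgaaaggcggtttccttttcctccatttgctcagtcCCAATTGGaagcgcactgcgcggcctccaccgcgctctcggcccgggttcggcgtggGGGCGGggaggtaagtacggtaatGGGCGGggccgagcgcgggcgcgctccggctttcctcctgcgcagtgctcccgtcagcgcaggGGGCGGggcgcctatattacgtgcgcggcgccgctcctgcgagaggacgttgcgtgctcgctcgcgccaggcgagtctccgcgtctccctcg
HNRNPAB, chr5:178204283-178204582, plus strand: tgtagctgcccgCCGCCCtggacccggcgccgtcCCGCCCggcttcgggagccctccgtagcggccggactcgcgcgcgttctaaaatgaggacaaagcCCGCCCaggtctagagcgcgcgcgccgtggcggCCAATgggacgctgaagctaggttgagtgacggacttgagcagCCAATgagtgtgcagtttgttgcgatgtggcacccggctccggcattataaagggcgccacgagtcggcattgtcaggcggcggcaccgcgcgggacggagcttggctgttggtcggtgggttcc
HNRNPA2B1, chr7:26200697-26200996, minus strand: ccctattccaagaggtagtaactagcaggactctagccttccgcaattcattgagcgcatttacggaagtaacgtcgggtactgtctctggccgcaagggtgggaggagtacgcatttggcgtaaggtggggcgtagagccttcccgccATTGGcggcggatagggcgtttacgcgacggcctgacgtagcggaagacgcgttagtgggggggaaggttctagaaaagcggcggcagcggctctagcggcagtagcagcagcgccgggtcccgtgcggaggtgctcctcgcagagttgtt

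A CCAAT box was found in 21 of the 33 member windows (63.6%), those of the 5 coding genes called by edgeR among them, and in 34.6% of the 35116 windows of all genes. A GC box was found in 22 of the 33 member windows (66.7%) and in 45% of all windows. Counted by gene, 19 of the 22 members and 5 of the 5 called had a CCAAT box. A GC box was in 17 of the 22 members and 3 of the 5 called. Several members have more than 1 window, and windows of 1 gene can overlap. The ETS motif CCGGAAGT was found in 1 member window, that of HNRNPD (3.03%), and in 4.14% of all windows.

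The E2F motif was searched as TTTCCCGC, TTTCGCGC, TTTGCCGC, or TTTGGCGC on either strand. It was found in 1 window each of HNRNPLL, HNRNPK, HNRNPA3, and HNRNPUL1, which is 4 of 33 member windows (12.1%), and in 3.31% of all windows. The windows of the 5 coding genes called by edgeR held no match to these letters. The surroundings of the 4 matches are shown with the motif in capitals, since they are the members that hold it.

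HNRNPLL, chr2:38603075-38603122, minus strand: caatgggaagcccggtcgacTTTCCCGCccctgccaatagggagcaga
HNRNPK, chr9:83980753-83980800, minus strand: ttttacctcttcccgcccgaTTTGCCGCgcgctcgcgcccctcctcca
HNRNPA3, chr2:177212544-177212573, plus strand: cgGCGGCAAAggccctcttcccctgaaagc
HNRNPUL1, chr19:41264142-41264189, plus strand: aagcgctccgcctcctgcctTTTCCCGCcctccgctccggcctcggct

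These 4 genes were called in no comparison with pTRE by edgeR, while DESeq2 called HNRNPUL1 higher in R109K and KK and HNRNPLL lower in KK. A match is a string of letters and not a shown binding site, and windows outside these bases were not searched.

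The pseudogenes differed widely in their reads. HNRNPA1P10 had 0 reads in all 12 libraries, and HNRNPKP3 had 2 reads in KK replicate 3 and 0 elsewhere. HNRNPA3P1 had 12, 2, and 5 reads in pTRE, 5, 0, and 10 in WT, 13, 5, and 6 in R109K, and 9, 13, and 3 in KK. Its log2 fold changes of -0.24, 0.21, and 0.46 had SEs from 0.74 to 0.81, so a difference was not detectable at this depth. HNRNPA1P33 was the pseudogene with substantial counts, 101 to 633 reads per library.

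HNRNPA1P33 spans bases 47133338 to 47133898 of chromosome 10, minus strand. Of its aligned bases, 96.1% were identical to the HNRNPA1 transcript, with 22 of 558 bases that differed, all within the coding sequence of HNRNPA1.

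Of the 487 windows of 75 bases in HNRNPA1P33, 4.52% had an exact match in an HNRNPA1 transcript. The share was 60% for HNRNPA1P10, which was 99.6% identical to HNRNPA1 over its aligned bases, and 35.9% for HNRNPA1L2, at 98.5%. HNRNPA3P1 was 96.7% identical to HNRNPA3, with 2.72% of its windows matched, and HNRNPKP3 was 88.3% identical to HNRNPK, with 0%. Reads without a unique placement, 8.60% to 9.60% of each library, were listed apart from the gene counts, so the counts of HNRNPA1 and its copies are uncertain.

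HNRNPA1P33 fell in WT. It had 22.7, 19.6, and 23.25 CPM in pTRE, 6.41, 8.11, and 10.9 CPM in WT, 10.4, 11.1, and 15.15 CPM in R109K, and 9.96, 11.48, and 17.7 CPM in KK. All 9 libraries of the E2F1 lines were below those of pTRE, with KK replicate 3 the nearest. The log2 fold change was -1.36 ± 0.23 in WT, more than 2-fold (adjusted p = 0.000257, edgeR), and -1.34 without WT replicate 2 (adjusted p = 0.000633). It was -0.84 ± 0.22 in R109K and -0.75 ± 0.22 in KK, which were not called (adjusted p = 0.0101 and 0.0156, edgeR). The WT call held in 6 of 6 leave-outs. HNRNPA1P33 was called in R109K without R109K replicate 3, at -1.02 (adjusted p = 0.00775), and in KK without KK replicate 3, at -1.03 (adjusted p = 0.00259). Between the E2F1 lines, the difference was 0.52 ± 0.23 for R109K against WT and 0.62 ± 0.23 for KK against WT (adjusted p = 0.198 and 0.574, edgeR), and 0.49 and 0.59 without WT replicate 2.

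The neighbourhood of HNRNPA1P33 was examined after its values had been seen. It lies in an intron of LINC00842, a noncoding RNA gene on the same strand, from 47011753 to 47174018, and no exon of that gene overlaps it. LINC00842 had 10.7, 12.8, and 14.0 CPM in pTRE, 5.45, 6.91, and 7.77 CPM in WT, 7.07, 6.94, and 10.3 CPM in R109K, and 6.30, 5.95, and 9.16 CPM in KK. It fell by 0.90 on the log2 scale in WT and by 0.81 in KK (adjusted p = 0.00316 and 0.00622, edgeR), and its value in R109K was -0.63 (adjusted p = 0.0306). The call was lost in WT without pTRE replicate 2 or 3 or WT replicate 1, and in KK without pTRE replicate 2 or 3 or KK replicate 1 or 2 (adjusted p up to 0.031). Without WT replicate 2 the WT value was -0.92. The ratio of HNRNPA1P33 reads to LINC00842 reads was between 1.54 and 2.12 in the pTRE libraries, 1.17 and 1.40 in WT, 1.47 and 1.60 in R109K, and 1.58 and 1.93 in KK. The nearby gene SYT15 had log2 fold changes of -0.64, -0.74, and -0.90 (adjusted p = 0.091, 0.0673, and 0.0235, edgeR). Its WT value was -1.08 without WT replicate 2 and was then called (adjusted p = 0.00222). The part of the LINC00842 transcript in the HNRNPA1P33 counts was not tested.

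**Figure D4:**
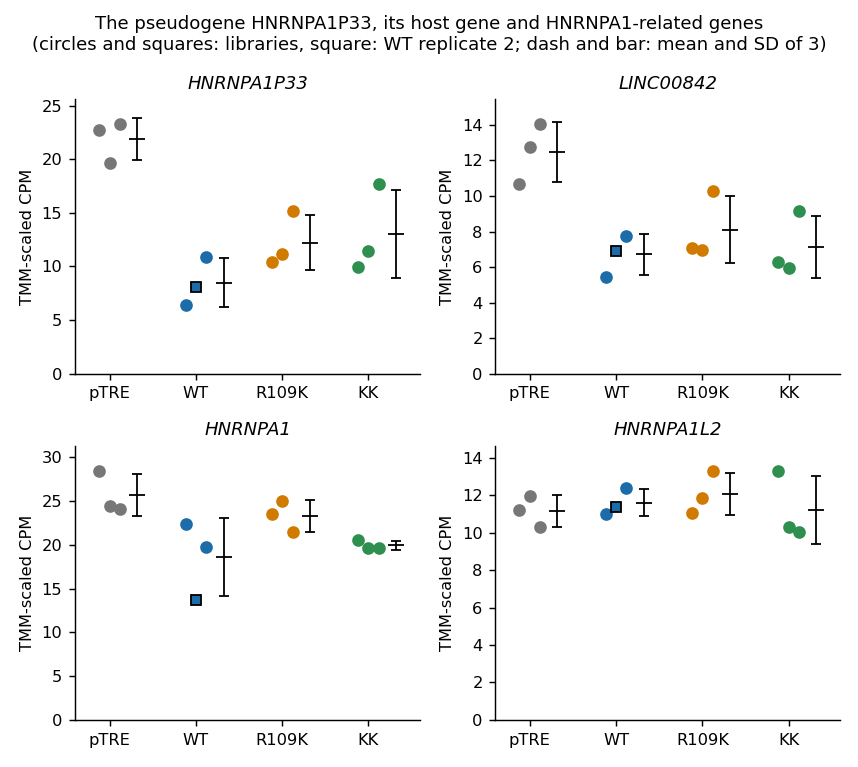
TMM-scaled CPM of HNRNPA1P33, its host gene LINC00842, HNRNPA1, and HNRNPA1L2 in each library, with the mean and SD of 3 libraries per line and WT replicate 2 as a square. HNRNPA1P33 and LINC00842 are lower in all E2F1 libraries than in pTRE, while HNRNPA1L2 overlaps between all lines.

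Reads on the 4 pseudogenes were also set against those on their parent genes, HNRNPA1, HNRNPA3, and HNRNPK. Per 1000 parent reads they were 14.4 ± 1.79 in pTRE (SD, n = 3), 6.48 ± 1.88 in WT, 7.99 ± 1.76 in R109K, and 9.31 ± 2.89 in KK. Nearly all pseudogene reads were those of HNRNPA1P33, 4255 over the 12 libraries, beside 83 on HNRNPA3P1 and 2 on HNRNPKP3. Most parent reads were on HNRNPA3 and HNRNPK, with 18935 and 19400 in pTRE replicate 1 beside 689 on HNRNPA1. The pooled ratio thus mainly sets HNRNPA1P33 against genes that are not its parent. For HNRNPA1P33 alone, the ratio to HNRNPA1 reads was 0.855 ± 0.095 in pTRE, 0.477 ± 0.167 in WT, 0.532 ± 0.152 in R109K, and 0.657 ± 0.218 in KK. The R109K ratios, and the WT ratios, lay below those of pTRE in every library, while KK replicate 3 reached 0.901 and overlapped with pTRE.

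HNRNPU-AS1 falls outside the rule for named genes and was chosen after its values were seen. It had 17.4, 15.1, and 17.04 CPM in pTRE, 28.2, 40.3, and 23.9 CPM in WT, 20.9, 21.2, and 20.2 CPM in R109K, and 25.2, 24.8, and 27.8 CPM in KK. All libraries of the E2F1 lines were above pTRE, and those of R109K were the lowest of them. The log2 fold change was 0.89 ± 0.16 in WT, 0.65 ± 0.16 in KK, and 0.33 ± 0.16 in R109K (adjusted p = 0.00044, 0.00461, and 0.139, edgeR), and 0.65 in WT without replicate 2 (adjusted p = 0.000652). The WT call held in 6 of 6 leave-outs, and the KK call in 1 of 6, without KK replicate 2 (adjusted p up to 0.0268 in the others). R109K was lower than WT by 0.56 ± 0.16 on the log2 scale, which was not called (adjusted p = 0.0629, edgeR), and by 0.33 without WT replicate 2 (adjusted p = 0.211). RefSeq now gives the symbol as a synonym of HNRNPU, and the strand setting of the counting is not given in the sources used here. HNRNPU and HNRNPU-AS1 were counted as separate rows. Whether reads on the HNRNPU-AS1 row came from HNRNPU or from an antisense transcript cannot be told from these counts.

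Genes of the same machinery were read beside the family. Of 20 genes of hnRNP proteins under other symbols, 18 were tested. PTBP2, the neuronal form of the polypyrimidine tract binding protein, rose by 0.68 ± 0.15 on the log2 scale in WT (adjusted p = 0.00248, edgeR), and had 0.08 in R109K and 0.36 in KK. RALY, a relative of HNRNPC, rose by 0.53 ± 0.15 in WT and 0.78 ± 0.15 in KK (adjusted p = 0.00989 and 0.000715), and had 0.55 in R109K (adjusted p = 0.0113). These were 2, 0, and 1 called genes in WT, R109K, and KK, all higher, beside the shares of all genes given above. The list's medians were 0.03 in WT and 0.12 in R109K. PTBP2 lost its call in WT without WT replicate 1 or pTRE replicate 2 or 3 (adjusted p up to 0.0173), and RALY held its call in WT only without WT replicate 2 (adjusted p up to 0.0517 in the other leave-outs) and in KK in 6 of 6. In WT without replicate 2, PTBP2 was at 0.59 and RALY at 0.64.

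Of 14 SR protein genes, which often act on splice sites in opposition to hnRNPs, all were tested. SRSF12 was higher in each E2F1 line, by 1.77 ± 0.36, 1.87 ± 0.35, and 1.78 ± 0.36 on the log2 scale (adjusted p = 0.00123, 0.000994, and 0.00107, edgeR), from a mean of 0.509 CPM in pTRE. SRSF8 fell by 0.45 in WT and by 0.44 in KK (adjusted p = 0.00732 and 0.0084, edgeR), and had -0.34 in R109K (adjusted p = 0.04). The other 12 SR genes were not called by edgeR, and DESeq2 called TRA2A higher in WT (adjusted p = 0.0075). Thus 1 SR gene was called higher in each line and 1 lower in WT and in KK. Of all genes, 26.2%, 17.3%, and 24.4% were called in WT, R109K, and KK in either direction. The medians of the SR genes were -0.0091, 0.11, and 0.11 in the same order. SRSF12 held its call in each line in 6 of 6 leave-outs, while SRSF8 held it in 1 of 6 in WT, without WT replicate 1, and in 0 of 6 in KK (adjusted p up to 0.0514). In WT without replicate 2, SRSF12 was at 1.53 and SRSF8 at -0.34. Of 15 genes of nuclear import and 3′ end processing, 0 were called in each of the 3 comparisons by edgeR, beside the same shares of all genes. At an unadjusted p under 0.05, edgeR gave 3, 4, and 3 in WT, R109K, and KK, beside 49%, 38.6%, and 45.6% of all genes. The medians of the 15 genes were -0.01, 0.13, and 0.07. In WT, 1 of them was called without WT replicate 2. DESeq2 called TNPO2 higher in WT and NUDT21 higher in R109K and KK.

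The coding members moved together in WT replicate 2. On the log2 scale, 19 of the 20 tested genes were lower there than the mean of WT replicates 1 and 3, which is 95% against 51.8% of all genes, and the median was -0.42 against -0.019. HNRNPH3 was lowest at -0.64, followed by HNRNPA1 at -0.62 and HNRNPM at -0.60. HNRNPUL2 at 0.38 was the exception, and HNRNPU-AS1 was at 0.63. The drop was not particular to the family. SRSF1 had 597, 446, and 607 CPM in WT replicates 1 to 3, and KPNB1 had 1155, 904, and 1126 CPM. PTBP2, at 71.4, 72.7, and 49.6 CPM, did not drop, and the members of the companion lists that dropped were not counted. The 23 coding genes together took 0.922% of gene reads in WT replicate 2 and 1.17% and 1.14% in WT replicates 1 and 3. The share was 0.916% to 1.01% in pTRE, 1.13% to 1.19% in R109K, and 1.11% to 1.13% in KK. WT replicate 2 thus lay within the pTRE range, and the other 8 libraries of the E2F1 lines above it. Without this library, 4 of 20 coding genes were called in WT, all higher (HNRNPA2B1, HNRNPAB, HNRNPU, and HNRNPUL2), beside 24.2% of all genes, and the median of the coding genes was 0.17 against -0.03 over all genes. The part of the reads outside genes in these values was not tested.

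**Figure D5:**
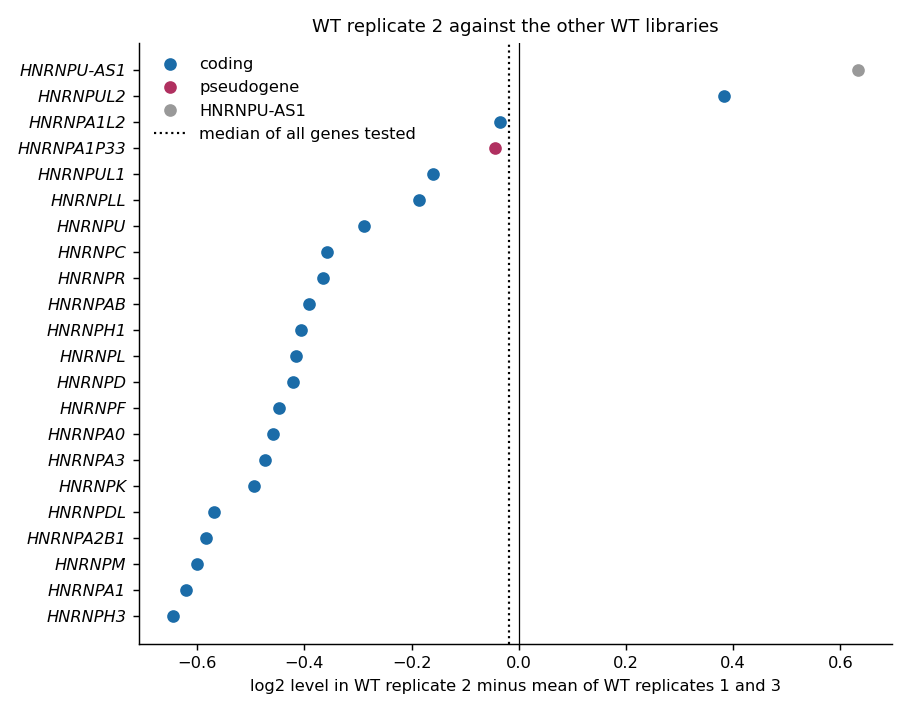
Log2 level of each tested HNRNP row except HNRNPA3P1 in WT replicate 2 minus the mean of WT replicates 1 and 3, with the median of all genes tested as a dotted line. Of the coding genes, 19 of 20 lie below 0, and HNRNPUL2 and HNRNPU-AS1 lie to the right.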

How the data were processed

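RNA-seq libraries were prepared by the authors from poly(A)-selected RNA with a directional kit. Per the labels and methods, reads were trimmed with Trim Galore 0.4.3 and aligned to hg19 with STAR 2.5.1, and the authors tested them with DESeq2 1.16.1. The deposited values are counts, whole numbers of reads per gene without normalization, with 5 summary lines that were kept out of library sizes. The annotation and strand setting are not given in the sources used here. Reads on genes ranged from 11500537 to 31040903 per library, and counting limits the precision of HNRNPA3P1.

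The main test was edgeR's quasi-likelihood test (edgeR 4.0.16, R 4.3.3), fitted once to the 12 samples with 1 mean for each line after TMM scaling. The filterByExpr function left 16625 genes. Benjamini-Hochberg adjustment ran over all of these, and a gene was called at an adjusted p under 0.01. The study's further condition of a 2-fold change was counted beside it. SE is the log2 fold change divided by the root of the F statistic. P-values measure the spread between the biological replicates of 1 line each. The script was tested on simulated data.

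Values in every sample were given for members called in any comparison, and for the 3 coding genes and 3 pseudogenes with the largest change against pTRE. E2F1 was given as a range for each line. Every HNRNP row is named. Companion genes were named where called. The members and lists were chosen with earlier results of these data known. Alternatives were RLE normalization, no filter, a mean of at least 10 counts, DESeq2 1.42.0, the replicate number as a block, only the 6 samples compared, and each replicate left out in turn. The methods name no pairing of samples by replicate number, so the main fit had no block. Replicate libraries were not duplicates, with a chi-square per degree of freedom of 9.36 to 60.5 within lines. Positions are from GENCODE v44lift37 on GRCh37. Pseudogenes were aligned to the canonical parent transcript with Biopython 1.88. The sum of 1 marker gene list and a stretch of aligned sequence are not reported here.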

Additional observations from a re-analysis of the deposited data

Results flagged for a closer look

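WT replicate 2 had 58.7% of its reads outside annotated genes, which is a signal in reads that the comparisons did not use. The other 11 libraries, pTRE among them, had 23.6% to 29.6%. Between 59.1% and 65.7% of reads fell on genes in those libraries, and 31.2% in WT replicate 2. The 3 samples of a line are too few for a test of single samples.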

How the results depend on the processing

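HNRNPA1P33 in WT stayed called and below pTRE under every alternative run. The called coding genes in WT against pTRE, 4 in the analysis given, were 2 with no filter on low counts and 1 with only the 6 samples compared, and 1 to 4 when a replicate was left out. Leaving out pTRE replicate 1 or 2, or WT replicate 1, gave 1, and pTRE replicate 3 or WT replicate 3 gave 2. In R109K against pTRE, 3 became 5 with DESeq2, 1 with the replicate block, and 5 with only the 6 samples compared, and 0 without any 1 pTRE or R109K replicate. In KK against pTRE, 2 became 7 with DESeq2 and 1 to 2 when a replicate was left out, with 1 without pTRE replicate 1 or 3. The share of all genes called moved too. With a replicate left out it was 19% to 25.3% in WT, 10.8% to 12.7% in R109K, and 17.9% to 21.9% in KK. With only the 6 samples compared it was 20.7% in WT and 25.9% in R109K, and with no filter 19.5% in WT. The called pseudogenes in R109K against pTRE, 0 in the analysis given, were 1 with RLE normalization, no filter, DESeq2, the replicate block, or only the 6 samples compared, and 0 to 1 when a replicate was left out. In KK against pTRE, 0 became 1 with no filter, DESeq2, the replicate block, or only the 6 samples, and 0 to 1 when a replicate was left out. In each case the pseudogene was HNRNPA1P33. Leaving out R109K replicate 3 or KK replicate 3 gave the call in its own line. The cause was not tested. With the replicate number as a block, called coding genes in WT were 3. After the line means were removed, the correlation of libraries with the same number averaged 0.0436 over 18 pairs (-0.295 to 0.470). Of the 12 libraries, 6 correlated best with their own number. HNRNPA1P33 was highest in replicate 3 of every line, while HNRNPU was not. These values do not settle whether libraries with the same number share a batch.

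Directions turned in some leave-outs, all without a call, and the ranges on the log2 scale follow. R109K against KK ran from -0.27 to 0.18 for HNRNPA1P33, the latter without KK replicate 3. R109K against WT ran from -0.047 to 0.24 for HNRNPA2B1, -0.056 to 0.19 for HNRNPAB, and -0.060 to 0.12 for HNRNPU. KK against WT ran from -0.13 to 0.16 for HNRNPA2B1, -0.036 to 0.16 for HNRNPR, and -0.0020 to 0.17 for HNRNPU. Each low end in these comparisons with WT was without WT replicate 2. HNRNPUL2 in R109K against KK ran from -0.017 to 0.079. HNRNPA3P1, with few reads, ran from -1.06 to 0.65 in WT, -0.23 to 1.10 in R109K, and -0.18 to 1.35 in KK against pTRE, and from -0.68 to 0.38 in R109K against KK. E2F1 stayed called in all 3 lines under every alternative run.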
